A study of Mus musculus with 2 samples.

Results

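The Sonic hedgehog pathway was followed through 9 of the 18131 genes measured, chosen by name as known parts of the pathway. They were the secreted ligand Shh, the receptor Ptch1, the co-receptors Boc and Cdon, the ligand-binding inhibitor Hhip, the signal transducer Smo and the transcription factors Gli1, Gli2 and Gli3. All 9 were present in both expression tables. The tables came from single-cell RNA-Seq of C57BL/6 mouse embryos at E9.5, from a block of tissue that ran from mid otic level to the end of the fourth somite, where cardiac neural crest cells (cardiac NCCs) leave the neural tube. The samples are labelled as cardiac NCCs, but no sort is described and the tables held many lineages. Both libraries carried the Wnt1-Cre2 transgene and the ZsGreen1 reporter. The KO library was Prdm6f/f and the WT library was Prdm6+/+, so the stated genotypes differed only in the Prdm6 alleles. The paper reports that batch effects between the conditions were seen by eye and were corrected in its graph of neighbouring cells. No batch correction was applied to the values here, so batch and genotype cannot be told apart in any KO over WT ratio. Prdm6 encodes a PR domain protein that acts on chromatin to repress genes. Cre driven by Wnt1 acts in the dorsal neural tube and in NCCs, and which cells below had carried it was not measured here. Embryos were pooled, the embryo of each cell was not analysed here, and 1 library stood for each genotype, so no difference between WT and KO could be tested against the spread between embryos.

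Shh is secreted by the notochord, the floor plate of the neural tube and the endoderm, and patterns the tissues around them. In a cell without ligand, Ptch1 keeps Smo inactive and Gli3, with part of Gli2, is processed to a repressor. Ligand bound to Ptch1 with Boc or Cdon releases Smo at the primary cilium, Gli proteins then activate transcription, and Gli1, Ptch1 and Hhip are themselves among the genes switched on, the last 2 as feedback inhibitors. In the neural tube the pathway specifies ventral identities, in the somite it specifies sclerotome, and in the pharynx it is required for outflow tract and arch development.

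The promoters of the feedback genes Ptch1 and Hhip are shown because these genes are the readout of the pathway below, and that of Gli2 because it was the only member window that held the core of the Gli binding motif. Each sequence runs from 250 bases before to 50 bases after an annotated RefSeq start on GRCm38.p6. An entry was found for 6 of the 9 members. The windows of Ptch1, Cdon and Gli3 lie wholly inside the annotated gene, at internal starts. The annotated 5′ end of Ptch1 is at base 63573598. The Ptch1 window is chr13:63565686-63565985 on the minus strand, the Hhip window is chr8:80057959-80058258 on the minus strand, and the Gli2 window is chr1:119053570-119053869 on the minus strand. Capitals mark the core motif ACCACCC or its reverse complement GGGTGGT.
Ptch1: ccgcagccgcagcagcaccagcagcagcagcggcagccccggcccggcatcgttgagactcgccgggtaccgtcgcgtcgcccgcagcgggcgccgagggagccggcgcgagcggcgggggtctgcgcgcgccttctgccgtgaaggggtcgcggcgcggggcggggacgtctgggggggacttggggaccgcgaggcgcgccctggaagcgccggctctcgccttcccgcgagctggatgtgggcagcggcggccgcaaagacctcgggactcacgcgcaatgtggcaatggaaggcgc
Hhip: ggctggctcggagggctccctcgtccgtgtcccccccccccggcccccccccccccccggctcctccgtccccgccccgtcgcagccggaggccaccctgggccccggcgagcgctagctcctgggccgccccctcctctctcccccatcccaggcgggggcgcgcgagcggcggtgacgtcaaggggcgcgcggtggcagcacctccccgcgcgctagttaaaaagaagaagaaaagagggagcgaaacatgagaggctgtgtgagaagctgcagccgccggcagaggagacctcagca
Gli2: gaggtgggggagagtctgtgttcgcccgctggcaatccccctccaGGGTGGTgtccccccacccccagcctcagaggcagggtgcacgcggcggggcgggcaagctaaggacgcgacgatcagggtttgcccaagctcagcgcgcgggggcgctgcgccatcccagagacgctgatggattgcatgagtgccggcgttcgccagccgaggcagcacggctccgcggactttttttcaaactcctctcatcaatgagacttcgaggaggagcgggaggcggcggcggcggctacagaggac
The full motif GACCACCCA, read on both strands, was in 83 of 32851 promoter windows (0.253%) and in none of the 6 member windows. The core ACCACCC, which lies inside the full motif, was in 1514 windows (4.61%) and in 1 member window, that of Gli2, at base 46 of 300. A match is a string of letters and not a measured binding site, and no match concerns these windows only.

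The deposited values were turned back into counts of unique molecular identifiers (UMIs, 1 per captured transcript), which were whole within 1% for 100% of nonzero values. In WT, 20781384 UMIs came from 11958 cells (median 1597 per cell). In KO, 18936857 UMIs came from 9765 cells (median 1703), and 26 cell barcodes were found in both libraries. Prdm6 itself was rare, with 104 UMIs in WT and 59 in KO over all cells (log2 KO/WT -0.68, 95% interval -1.17 to -0.21), and whether 3′ tags reach the deleted part of the gene is not given in the sources used here. Cells were gated into classes by fixed marker genes that include no member, called "-like" below, and 47.0% of WT cells and 43.1% of KO cells entered a class. Of the 22 classes defined, 19 had at least 50 cells over both libraries and were named. Each class was checked with markers held back from its own gate, some of which, such as Foxa1 and Epcam, gated other classes. At least 2-fold raised were 5 of 8 in floor plate-like cells and 8 of 9 in endoderm-like cells. In splanchnic mesoderm-like cells 5 of 6 were raised, and in dorsal neural tube-like cells 2 of 6. Only 1 of 5 was raised in intermediate neural tube-like cells and 1 of 8 in the remaining neural tube cells. In ventral neural tube-like cells the check failed, with 0 of 5 raised, and that class rests on its gate genes, with Nkx6-1, Nkx2-2 and Olig2 among its leading genes. The endoderm-like class was gated on markers of pharyngeal endoderm, but Pyy, Afp and Ttr led it and Apoa2 and Rbp4 were among its leading 10 genes, which goes against a purely pharyngeal identity, so it is called endoderm-like only. Surface ectoderm-like cells had as many endoderm as surface ectoderm genes among their leading 10. KO cells were deeper in each named class, so levels are given as UMIs per 1000000 UMIs of the class (CPM) with exact 95% Poisson intervals, and ratios with exact conditional intervals. These intervals cover counting error only and not the spread between cells or embryos.

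Over all cells, no member differed by 1.5-fold between the libraries (2.39% of all genes did), and 4 of 9 had a counting interval of the ratio wholly below 0. Boc had 476 UMIs in WT and 318 in KO (22.9 and 16.8 CPM, log2 KO/WT -0.45, interval -0.66 to -0.24). Shh had 829 and 569 UMIs (39.9 and 30.05 CPM, -0.41, -0.57 to -0.25). Smo had 1553 and 1258 UMIs (74.7 and 66.4 CPM, -0.17, -0.28 to -0.06). Gli3 had 2431 and 2087 UMIs (117 and 110.2 CPM, -0.09, -0.17 to -0.00). All 4 were lower in KO, but with median-of-ratios scaling the interval of Gli3 held 0 (-0.030, -0.12 to 0.055), which leaves 3. Such intervals were common. Of the 10513 genes with at least 200 UMIs, 29.1% had an interval wholly below 0 and 16.9% one wholly above 0. A 1.5-fold ratio was rarer, at 2.02% of those genes lower in KO and 0.371% higher, and the median over all of them was -0.06 against -0.15 over the 9 members.

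The receptor Ptch1 and 4 other members had ratios whose intervals held 0. Ptch1 had 9076 UMIs in WT and 8363 in KO (437 and 442 CPM, log2 KO/WT 0.02, interval -0.03 to 0.06). Its direction depended on the processing, at 0.076 (0.033 to 0.12) with trimmed-mean scaling. Thinning cells to 1000 UMIs gave -0.081 (-0.14 to -0.019), but thinning also left out the cells under 1000 UMIs. Those were unequal between libraries, at 1129 WT and 105 KO cells among the cells of no class. Gli1 gave -0.05 (-0.31 to 0.21), Gli2 gave 0.03 (-0.14 to 0.20), Cdon gave -0.15 (-0.30 to 0.01) and Hhip gave -0.21 (-0.48 to 0.06). The intervals of Gli1 and Hhip, at 263 and 262 WT UMIs, were the widest of the 9 members.

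**Figure D1:**
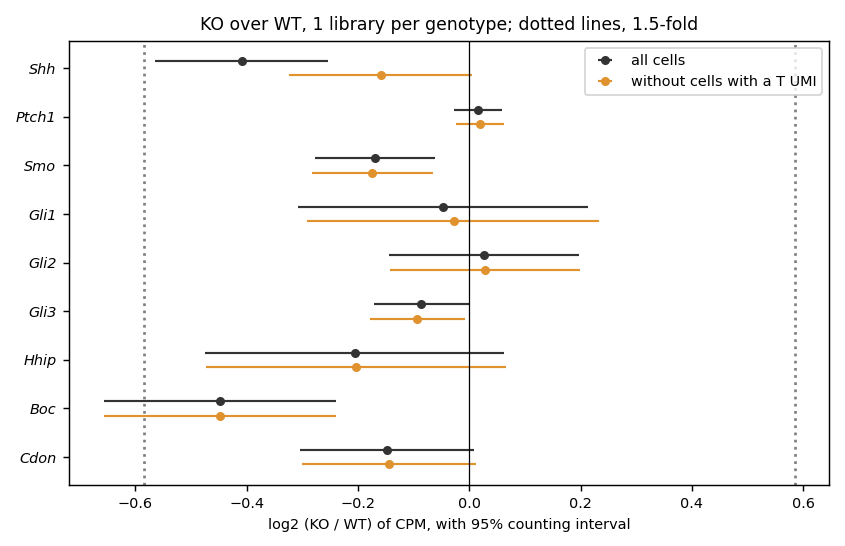
Log2 ratio of KO to WT level (CPM) for each member over all cells (black) and without the cells that held a T UMI (orange), with 95% counting intervals; dotted lines mark 1.5-fold. All points lie inside the dotted lines, and the Shh ratio of -0.41 moves to -0.16 without T cells.

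The ligand Shh (chr5:28456815-28467256, minus strand) was counted in few cells. A Shh UMI was found in 432 of 11958 WT cells (3.61%, exact interval 3.29 to 3.96) and in 304 of 9765 KO cells (3.11%, 2.78 to 3.48). Most of these cells held a single copy, 276 in WT and 190 in KO, while 32 WT and 20 KO cells held 5 or more. The highest count in 1 cell was 21 in WT and 12 in KO.

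Floor plate-like cells, the ventral midline of the neural tube, had the highest Shh level of any named class. They held 150 UMIs in 170 WT cells (504 CPM, interval 426 to 591) and 128 UMIs in 132 KO cells (475 CPM, 397 to 565). The 2 libraries did not differ beyond counting error there (log2 KO/WT -0.08, -0.44 to 0.27). A Shh UMI was in 39.4% of the WT floor plate-like cells (32.0 to 47.2) and in 47.7% of the KO cells (39.0 to 56.6), against 2.58% of WT and 0.847% of KO erythroid-like cells, which should lack the gene. Median depths were 1665 UMIs in WT and 1913 in KO floor plate-like cells, and 1845 and 2391 in erythroid-like cells. With cells thinned to 1000 UMIs the floor plate-like shares were 27.7% and 31.8%, and the erythroid-like shares 1.50% and 0.431%. Cells under 1000 UMIs were left out of these shares. They were 4 WT and 0 KO floor plate-like cells, and 31 WT and 4 KO erythroid-like cells.

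Endoderm-like cells came next, with 63 Shh UMIs in WT (185 CPM, 143 to 237) and 44 in KO (189 CPM, 138 to 254). The floor plate-like level was higher than the endoderm-like level in each library (log2 1.44, 1.01 to 1.89, in WT and 1.33, 0.82 to 1.86, in KO). Surface ectoderm-like cells followed in WT at 61.9 CPM (26 UMIs), with 65.4 CPM in KO (30 UMIs). In the ventral neural tube-like class, 15 UMIs (52.0 CPM) were counted in WT and 33 (95.2 CPM) in KO, and the interval of the ratio held 0 (-0.05 to 1.86). The WT levels of surface ectoderm-like and ventral neural tube-like cells could not be put in order, since their intervals overlapped. Erythroid-like cells had 13.7 CPM in WT and 3.46 CPM in KO (2 UMIs). Splanchnic mesoderm-like cells had 13.0 and 14.4 CPM, which did not differ from the erythroid-like values beyond counting error (log2 -0.08, -1.25 to 1.04, in WT and 2.06, -0.27 to 5.33, in KO). Migrating NCC-like cells had 7.16 and 9.02 CPM.

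Among the named classes, the interval of the Shh ratio excluded 0 in neuron-like cells alone, with 9 UMIs from 5 WT cells and 0 in KO. Much of the lower Shh total in KO lay in cells that expressed T (brachyury), the transcription factor that marks the notochord. Only 55 WT cells (0.460%) and 21 KO cells (0.215%) held a T UMI. The WT T cells carried 155 of the 829 Shh UMIs (18.7%) and the KO T cells 18 of 569 (3.16%), at 1480 CPM (1256 to 1732) and 323 CPM (191 to 510). Without them Shh stood at 32.6 CPM in WT and 29.2 CPM in KO, and the log2 ratio shrank from -0.41 to -0.16 (-0.32 to 0.00). Shh and T UMIs met in 27 of the 55 WT and 5 of the 21 KO T cells. Ptch1 in T cells was nearly equal, at 754 CPM in WT (79 UMIs) and 753 CPM in KO (42 UMIs). The gate built on T, Chrd, Nog, Foxa2 and Col2a1 held 21 WT and 7 KO cells, too few to be named, and its Shh count was 92 against 5 UMIs. Whether the 2 dissections took the same amount of notochord cannot be told apart from a difference in genotype.

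**Figure D2:**
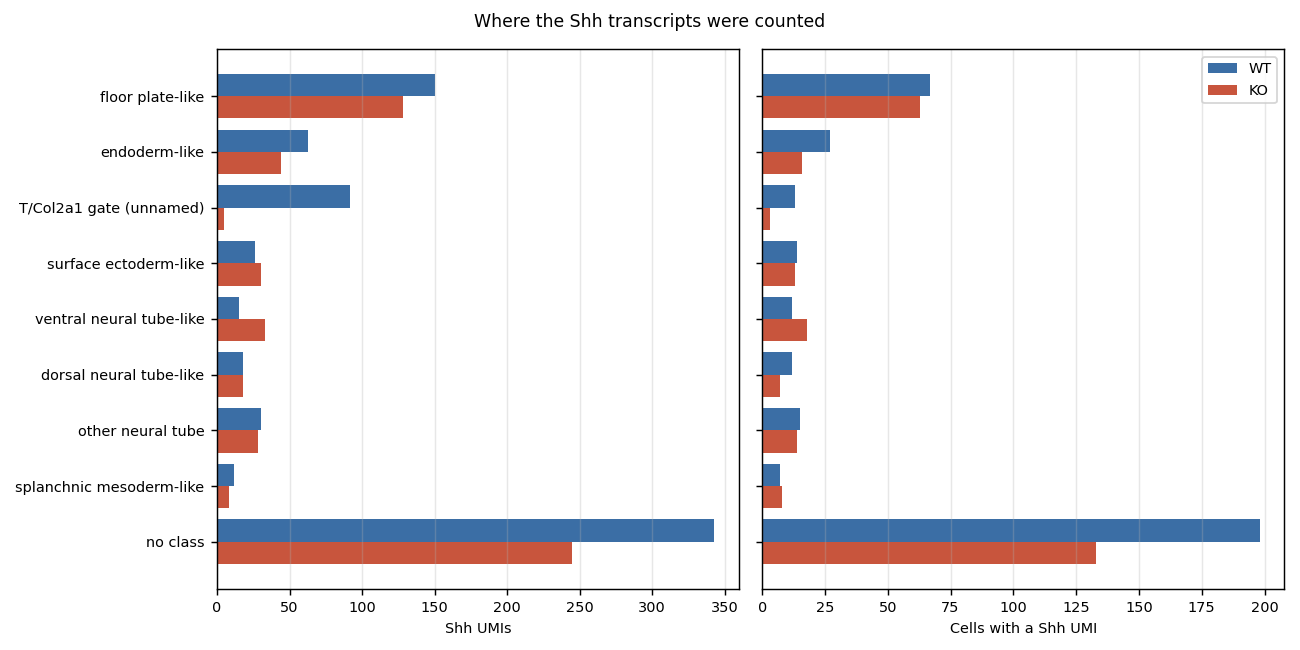
Shh UMIs (left) and cells with a Shh UMI (right) by class, WT in blue and KO in red; bars start at 0. Floor plate-like cells contribute 150 and 128 UMIs, the unnamed notochord gate (T/Col2a1) 92 and 5, and cells of no class 343 and 245.

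Cells that entered no class held 41.4% of the Shh UMIs in WT (343 UMIs) and 43.1% in KO (245 UMIs). Their Shh level was 36.5 CPM in WT and 26.7 CPM in KO (log2 KO/WT -0.45, -0.69 to -0.21). How many of the T cells were among them was not tabulated.

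Among the genes whose level across the 19 classes and 2 libraries (38 points) was most like that of Shh, Foxa2 led with a Pearson r of 0.90 on log2(CPM + 10). Foxa2, the forkhead factor of floor plate, notochord and endoderm, and Foxa1 (0.81) were gate markers, so part of their likeness was built in. Apela (0.88), Clec2l (0.77) and Car4 (0.75) were not. The points share 2 libraries and the classes differ in depth, so r is a description.

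Between floor plate-like cells with and without a Shh UMI, Ptch1 was close, at 867 and 768 CPM in WT and 759 and 764 CPM in KO. No Gli1 UMI was counted in the cells with Shh (67 in WT and 63 in KO). The remaining floor plate-like cells held 4 in WT and 1 in KO, so that no difference was detectable at this depth. Gli2 had 1 UMI in the WT cells with Shh (8.02 CPM, 0.203 to 44.7) and 11 in those without (63.6 CPM, 31.7 to 114), against 2 and 3 UMIs in KO. Hhip had 0 UMIs on both sides in WT, and in KO 5 in the cells with Shh and 1 in those without. Boc had 2 and 9 UMIs in WT and 1 and 4 in KO, and the Boc, Cdon, Smo and Gli3 intervals overlapped between the 2 sides in each library. Foxa2 stood at 770 CPM in the WT cells with a Shh UMI and 312 CPM in those without. In KO the values were 673 and 328 CPM.

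The receptor Ptch1 (chr13:63508328-63573598, minus strand) had its highest WT level in ventral neural tube-like cells, with 313 UMIs (1084 CPM, 968 to 1211). In KO the same class had 346 UMIs (998 CPM, 895 to 1109), and the libraries did not differ there beyond counting error (log2 KO/WT -0.12, -0.34 to 0.11). Sclerotome-like cells (826 CPM in WT, 741 in KO), floor plate-like cells (810 and 761) and splanchnic mesoderm-like cells (802 and 999) followed in WT, with intervals that overlapped from each to the next. Pharyngeal mesoderm-like cells had 732 and 615 CPM. In KO, splanchnic mesoderm-like (999 CPM), ventral neural tube-like (998) and head mesenchyme-like cells (842) came first, with intervals that overlapped from each to the next.

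Ptch1 was lowest in endothelial-like cells (199 CPM in WT and 198 in KO), cardiac muscle-like cells (235 and 246) and erythroid-like cells (242 and 227). A Ptch1 UMI was nevertheless present in 35.9% of WT erythroid-like cells, at 335 UMIs over 699 cells. Free RNA in droplets can give such counts in cells that do not make a gene, but their source here was not tested. Erythroid-like and all-cell levels in WT were 242 and 437 CPM for Ptch1, but 2.17 and 12.6 CPM for Hhip. The erythroid-like level of a gene is taken here as its background. Ventral neural tube-like cells stood 4.49-fold above it in WT and 4.40-fold in KO, and floor plate-like cells 3.35-fold in each.

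Along the neural tube Ptch1 was higher in more ventral classes in both libraries. Dorsal neural tube-like cells had 394 CPM in WT (345 to 447) and 316 in KO (277 to 359), intermediate neural tube-like cells 555 and 480.5, and ventral neural tube-like cells 1084 and 998. The ventral over dorsal log2 ratio was 1.46 in WT (1.21 to 1.71) and 1.66 in KO (1.42 to 1.90). Floor plate-like cells lay below the ventral class (log2 -0.42, -0.67 to -0.17, in WT and -0.39, -0.65 to -0.14, in KO), although they held the ligand. Some ventral gate genes are themselves Hedgehog targets, and with those genes dropped from the gates the ventral class shrank to 39 WT and 33 KO cells with a WT ratio of 1.72 (1.38 to 2.05).

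In the somite, Ptch1 was higher in sclerotome-like cells, the ventral part that responds to notochord Shh, than in dermomyotome-like cells, the dorsal part. There were 349 against 107 UMIs in WT (826 and 332 CPM, log2 1.31, 1.00 to 1.64) and 276 against 84 in KO (741 and 386 CPM, 0.94, 0.58 to 1.31). Splanchnic mesoderm-like cells, which lie next to the endoderm, exceeded cardiac muscle-like cells by 1.77 in WT (1.60 to 1.95) and 2.02 in KO (1.82 to 2.22). Head mesenchyme-like cells exceeded migrating NCC-like cells by 0.94 in WT and 1.22 in KO, with both intervals above 0. The sclerotome (Pax1, Pax9, Foxc2), splanchnic mesoderm (Foxf1, Foxf2) and head mesenchyme (Foxd1) gates also held Hedgehog-responding genes. Part of these contrasts may therefore be built in. With such genes dropped from the gates, the sclerotome-like class shrank to 67 WT and 64 KO cells.

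**Figure D3:**
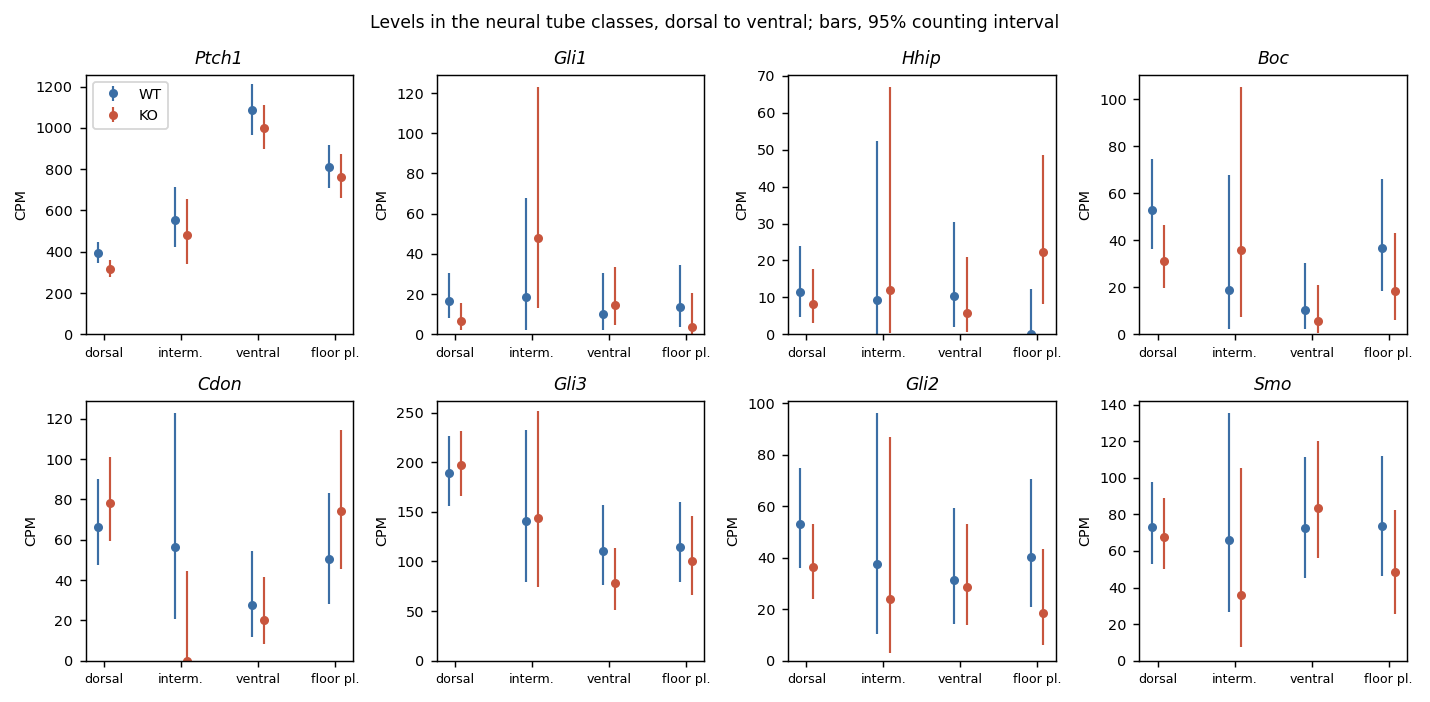
Levels (CPM, with 95% counting intervals) of 8 members in the dorsal, intermediate and ventral neural tube-like classes and the floor plate-like class, WT in blue and KO in red. Ptch1 is highest in the ventral class (1084 CPM in WT), where Boc is at 10.4 CPM in WT.

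Between WT and KO, Ptch1 differed in both directions by class. It was higher in KO in endoderm-like cells (178 UMIs in WT and 176 in KO, 524 and 758 CPM; log2 KO/WT 0.53, 0.22 to 0.84), in head mesenchyme-like cells (248 and 281 UMIs, 621 and 842 CPM; 0.44, 0.19 to 0.69) and in splanchnic mesoderm-like cells (740 and 554 UMIs, 802 and 999 CPM; 0.32, 0.16 to 0.48). It was lower in KO in dorsal neural tube-like cells (238 and 234 UMIs; -0.32, -0.58 to -0.05). In endoderm-like cells the UMIs were clumped, with up to 22 in 1 KO cell, and without the cells holding a Shh UMI the ratio was 0.22 (-0.15 to 0.59). In migrating NCC-like cells, the class closest to the sampled lineage, Ptch1 stood at 325 CPM in WT (284 to 370) and 361 CPM in KO (317 to 409).

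**Figure D4:**
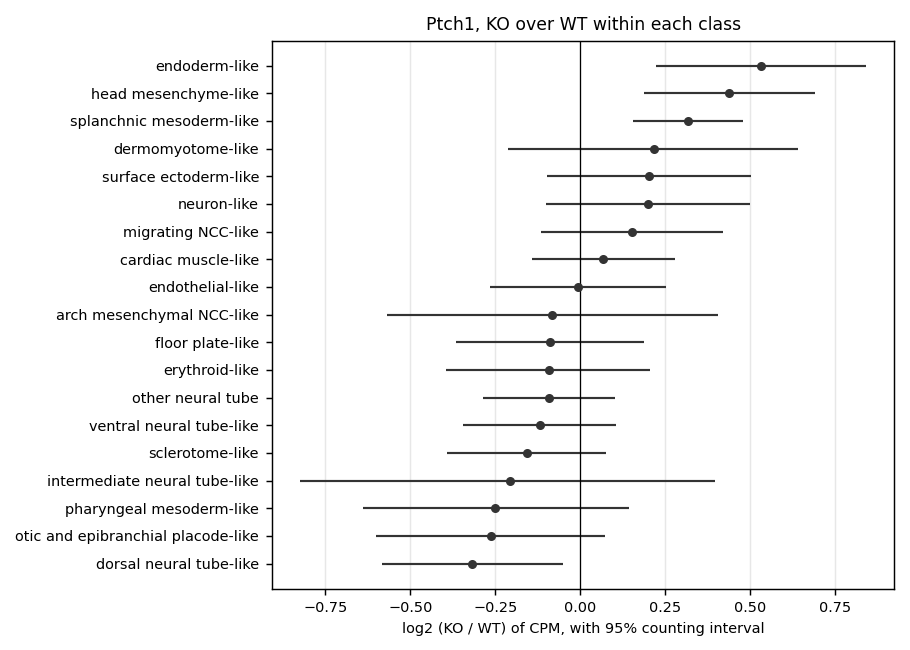
Log2 ratio of KO to WT Ptch1 level (CPM) in each of the 19 named classes, with 95% counting intervals; the vertical line marks equal levels. Endoderm-like (0.53), head mesenchyme-like (0.44) and splanchnic mesoderm-like cells (0.32) lie above 0 and dorsal neural tube-like cells (-0.32) below it.

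Over all members and named classes, 60 pairs had at least 50 UMIs, and 9 of them (15.0%) had a counting interval that excluded 0. Among all gene and class pairs with that many UMIs, 14.5% did so, a share near that of the members.

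The gene whose class profile was most like that of Ptch1 was Igdcc3 (r 0.79 over the 38 points), followed by Elovl4 (0.72), Clip3 (0.72), Pdcd4 (0.71) and Vangl2 (0.71), a planar polarity gene. None of them was a gate marker. Among members, Ptch1 had an r of 0.55 with Gli1 and 0.53 with Hhip, and 0.06 with Boc and 0.02 with Cdon.

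The co-receptors Boc (chr16:44485049-44558897, minus strand) and Cdon (chr9:35421128-35507652, plus strand) are cell-surface proteins that bind Shh and whose transcription is repressed where signalling is strong. Both were lower in the ventral than in the dorsal neural tube-like class, where Ptch1 was higher, but not in even steps. Boc had 32 UMIs in WT dorsal neural tube-like cells (53.0 CPM, 36.2 to 74.8) and 3 in the ventral class (10.4 CPM, 2.14 to 30.4). In KO there were 23 (31.1 CPM) and 2 (5.77 CPM). The ventral over dorsal log2 ratio was -2.35 in WT (-4.70 to -0.67) and -2.43 in KO (-5.56 to -0.41). Boc was also high in dermomyotome-like cells, at 68.3 CPM in WT (22 UMIs) and 36.8 in KO (8 UMIs). In intermediate neural tube-like cells Boc had 2 UMIs in WT and 3 in KO, and in floor plate-like cells 11 (37.0 CPM, 18.4 to 66.1) and 5 (18.6 CPM). Its ventral values did not differ from the erythroid-like background of 10.1 and 13.9 CPM beyond counting error.

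Cdon had 40 UMIs in WT dorsal neural tube-like cells (66.2 CPM) and 8 in the ventral class (27.7 CPM), a log2 ratio of -1.26 (-2.56 to -0.14). In KO it had 58 and 7 UMIs (78.3 and 20.2 CPM; -1.96, -3.33 to -0.82). The ventral values did not differ beyond counting error from the erythroid-like ones of 13.7 CPM in WT and 20.8 CPM in KO. In intermediate neural tube-like cells Cdon had 6 UMIs in WT and 0 in KO. In floor plate-like cells Cdon stood at 50.4 CPM in WT (15 UMIs) and 74.3 CPM in KO (20 UMIs). In KO the floor plate-like over ventral log2 ratio was 1.88 (0.58 to 3.36), and in WT it was 0.86 with an interval that held 0 (-0.47 to 2.31). Surface ectoderm-like cells had 47.6 CPM in WT and 74.2 in KO.

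Boc was lower in KO among cells of no class, at 243 UMIs in WT and 161 in KO (25.8 and 17.5 CPM, log2 KO/WT -0.56, -0.86 to -0.27). It was also lower in the neural tube classes without the floor plate-like class, at 69 UMIs in 1124 WT cells and 44 in 1143 KO cells (35.8 and 20.0 CPM; log2 KO/WT -0.84, -1.42 to -0.27). Neural tube cells outside the dorsal, intermediate and ventral gates gave 32 and 16 UMIs (-1.15), and Cdon was lower there too (35 and 21 UMIs, -0.89), as was Gli3 (154 and 131 UMIs, -0.38). Dorsal neural tube-like cells gave 32 and 23 Boc UMIs with an interval that held 0 (-1.61 to 0.05). In the same cells, the neural tube classes without the floor plate-like class, 4.48% of the 8264 genes with at least 50 UMIs were at least 1.5-fold lower in KO. The Boc UMIs were spread over 63 WT and 42 KO cells.

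Mrc2 (r 0.64) and the member Gli3 (0.61) had class profiles most like that of Boc, then Sf3a2 (0.61), Arhgef10l (0.60) and Csnk2a2 (0.58). Efnb1 (0.66), Acbd6 (0.65), Rbm12b2 (0.63), Tmem59 (0.63) and Trim62 (0.62) led for Cdon.

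Smo (chr6:29735503-29761365, plus strand) is the membrane protein that Ptch1 holds inactive. Its WT levels lay between 15.1 CPM in pharyngeal mesoderm-like cells and 114 CPM in sclerotome-like cells (48 UMIs). Neighbours in that order had overlapping intervals, but the ends did not (1.83 to 54.5 and 83.8 to 151 CPM). The largest difference between libraries was in pharyngeal mesoderm-like cells, with 2 UMIs in 71 WT cells and 29 UMIs in 95 KO cells (15.1 and 134 CPM). The 29 KO UMIs came from 26 cells, so no single cell carried the value. With so few WT counts the log2 ratio of 3.15 had a wide interval (1.17 to 6.26). The KO level was the highest of the 19 classes, with an interval (89.8 to 193) that overlapped those of the next in order, such as endoderm-like cells (52.6 to 133), and lay above those of others, such as cardiac muscle-like cells (33.8 to 57.1). In sclerotome-like cells Smo was lower in KO (48 and 22 UMIs; -0.94), and in endothelial-like cells likewise (79 and 48 UMIs; -0.59).

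Among the transcription factors, Gli3 (chr13:15463235-15730026, plus strand), the main repressor of the pathway, was highest in dermomyotome-like cells (193 CPM in WT, 165 in KO) and dorsal neural tube-like cells (189 and 197). It was lower ventrally, at 111 CPM in WT (32 UMIs) and 77.9 in KO (27 UMIs), with ventral over dorsal log2 ratios of -0.77 (-1.38 to -0.19) and -1.34 (-1.99 to -0.74). The WT ratio depended on the gates, at -1.44 with stricter gates and -2.68 with Hedgehog-responding genes left out of them. Cardiac muscle-like cells (62.7 and 59.8 CPM) and erythroid-like cells (62.8 and 43.3 CPM) had the least. Sclerotome-like cells had 58 Gli3 UMIs in WT and 32 in KO (137 and 85.9 CPM; log2 KO/WT -0.68). In migrating NCC-like cells the libraries had 136 and 128 CPM.

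Gli2 (chr1:118834132-119053619, minus strand), the main activator, was counted 585 times in WT and 543 times in KO. Its WT levels ran from 10.8 CPM in erythroid-like cells to 53.0 CPM in dorsal neural tube-like cells (32 UMIs). Neighbours in that order had overlapping intervals, but the ends did not (6.06 to 17.9 and 36.2 to 74.8 CPM). Across the 38 points Gli2 and Gli3 had an r of 0.68, the highest of the 36 member pairs.

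Gli1 (chr10:127329882-127341974, minus strand), an activator that is transcribed only where the pathway is on, was rare, with 263 UMIs in WT and 232 in KO. Splanchnic mesoderm-like cells held 24 of them in WT (26.0 CPM, 16.7 to 38.7) and 22 in KO (39.7 CPM, 24.9 to 60.1). They exceeded all other cells pooled by a log2 ratio of 1.11 in WT (0.44 to 1.72) and 1.80 in KO (1.09 to 2.43). Some single classes were at similar levels, with overlapping intervals. In WT these included sclerotome-like (23.7 CPM, 10 UMIs) and pharyngeal mesoderm-like cells (22.6 CPM, 3 UMIs). In KO, intermediate neural tube-like cells had the highest level (48.1 CPM, 4 UMIs). In ventral neural tube-like cells, where Ptch1 was highest in WT, only 3 and 5 Gli1 UMIs were counted. The WT value of 10.4 CPM did not differ from the erythroid-like value of 8.66 CPM (12 UMIs) beyond counting error (log2 0.26, -2.20 to 2.15). In KO, erythroid-like cells had 0 Gli1 UMIs in 236 cells, which allows a share of up to 1.27% of cells with a UMI, and the interval of the ventral over erythroid-like log2 ratio began at 0.61.

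Hhip (chr8:79965851-80058006, minus strand), which binds and sequesters the ligand, was rare too, with 262 UMIs in WT and 207 in KO. Splanchnic mesoderm-like cells held 30 UMIs in WT (32.5 CPM, 21.9 to 46.4) and 27 in KO (48.7 CPM, 32.1 to 70.9), above all other cells by 1.48 (0.88 to 2.03) and 2.31 (1.67 to 2.90) on the log2 scale. With stricter gates the WT ratio was 0.72 with an interval that held 0 (-0.36 to 1.62). Over erythroid-like cells, with 3 UMIs in each library, the log2 ratio was 3.91 (2.22 to 6.27) in WT and 3.23 (1.53 to 5.59) in KO. The highest WT level was in pharyngeal mesoderm-like cells, at 45.2 CPM on 6 UMIs (16.6 to 98.5), with 18.5 CPM in KO (4 UMIs). Sclerotome-like cells had 11 and 9 UMIs (26.0 and 24.2 CPM), above all other cells by 1.08 (0.06 to 1.94) and 1.18 (0.03 to 2.13), while the intervals of Gli1 there held 0 in both libraries.

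Surface ectoderm-like cells had Hhip above all other cells. They had 13 Hhip UMIs in WT and 17 in KO (31.0 and 37.1 CPM), above all other cells by 1.34 (0.41 to 2.14) and 1.85 (1.04 to 2.57). Gli1 had 2 UMIs there in each library, with intervals against all other cells that held 0 (-1.43, -4.48 to 0.44, in WT and -1.51, -4.57 to 0.36, in KO). The interval of Ptch1 also held 0 (-0.13, -0.36 to 0.09, and 0.06, -0.14 to 0.26). In floor plate-like cells Hhip had 0 UMIs in 170 WT cells, which allows up to 1.76% of cells with a UMI, and 6 UMIs in 4 of 132 KO cells.

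Svep1 (r 0.67), Hsd11b2 (0.64), Gpc3 (0.62), Etfbkmt (0.60) and Rnd3 (0.59) had the class profiles most like that of Hhip. Gpc3 is a glypican that binds Hedgehog ligands. Hsd11b2 also led for Gli1 (0.61), before Zfp157 (0.61), Tra2b (0.60), Gps1 (0.59) and Zfp275 (0.59).

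**Figure D5:**
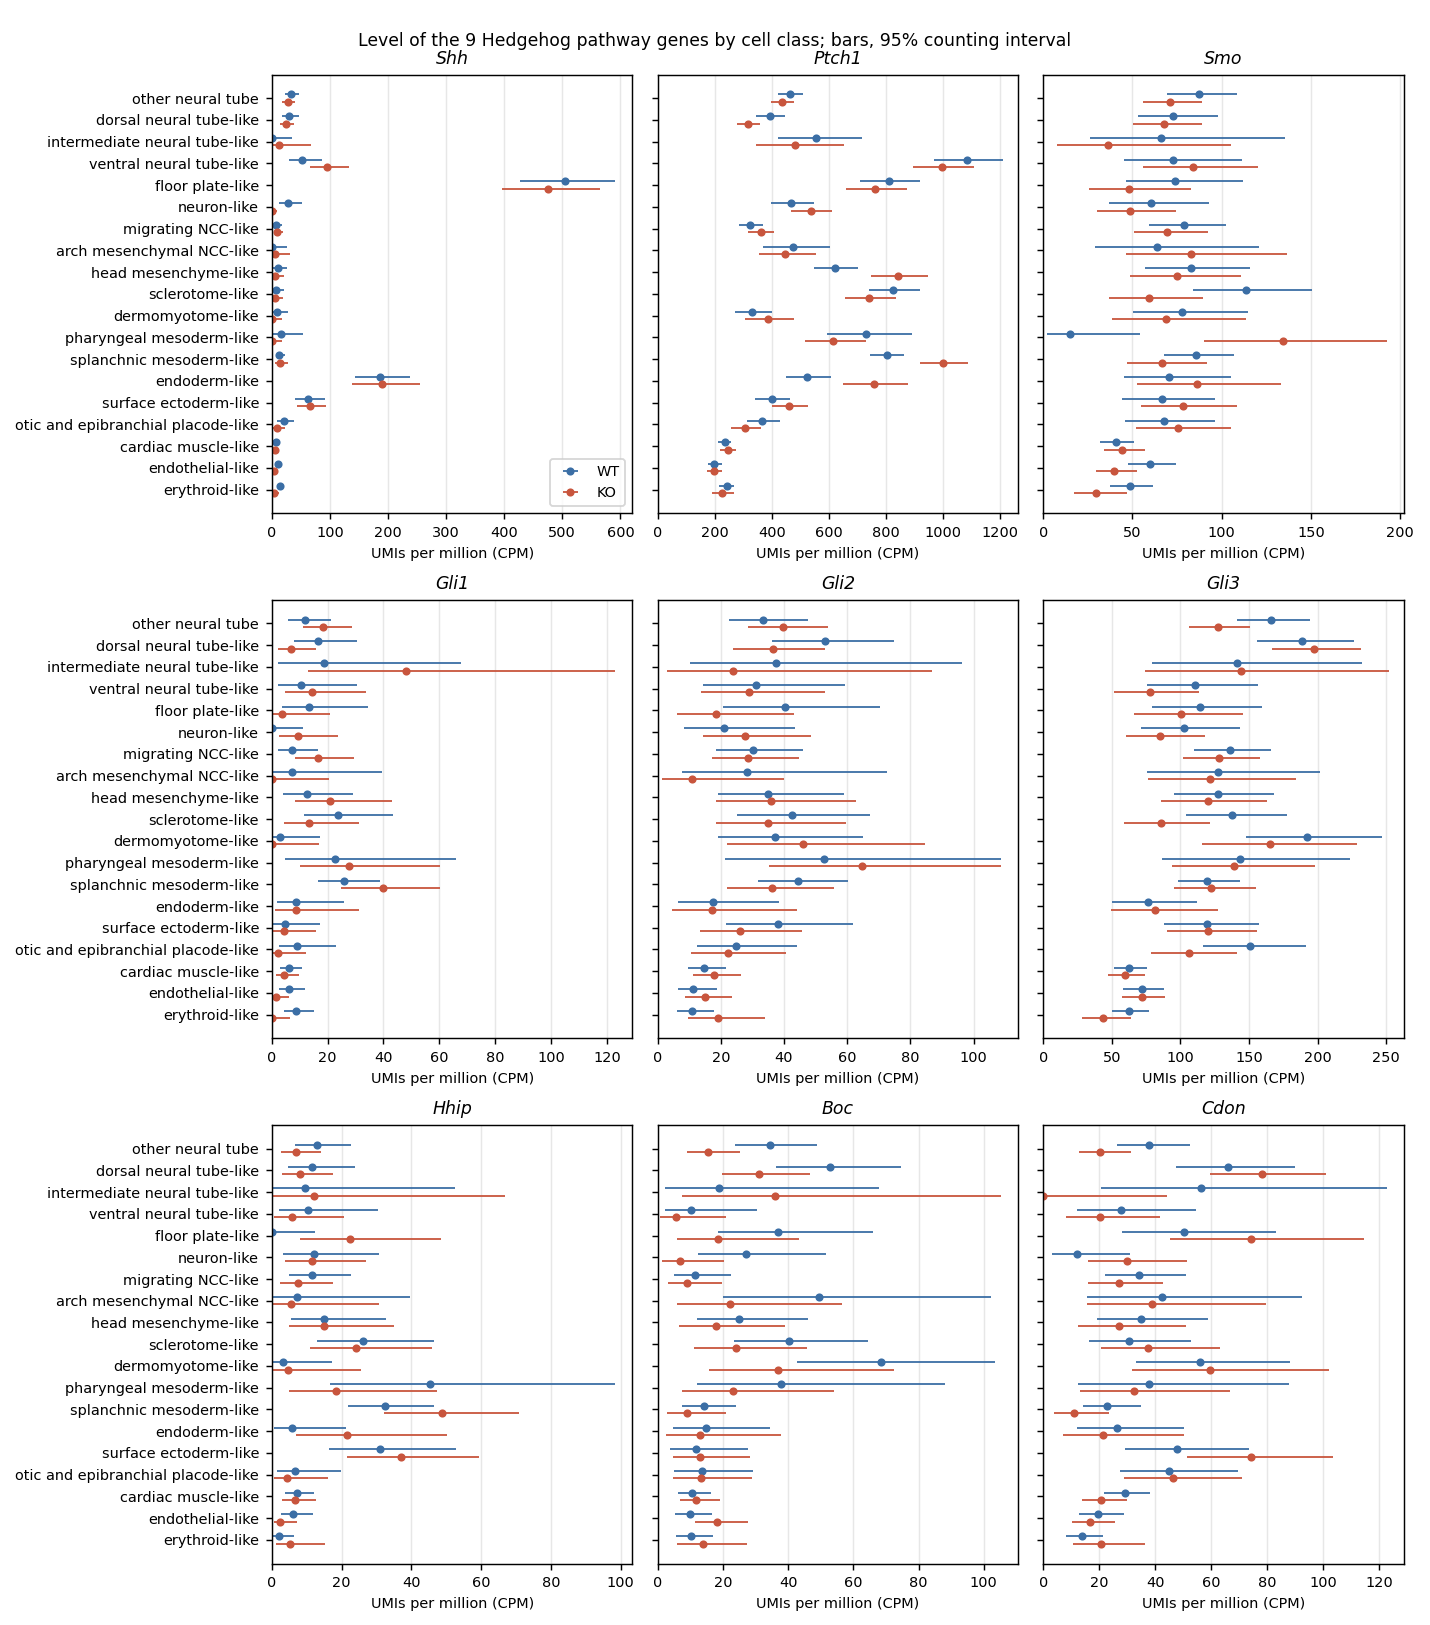
Level (CPM, with 95% counting intervals) of each of the 9 members in the 19 named classes, WT in blue and KO in red; each panel has its own horizontal scale. Shh stands out in floor plate-like and endoderm-like cells. In WT, Ptch1 is highest in ventral neural tube-like, sclerotome-like, floor plate-like and splanchnic mesoderm-like cells. In KO, head mesenchyme-like (842 CPM) and endoderm-like cells (758 CPM) lie above sclerotome-like cells (741 CPM).

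The remaining machinery of the pathway was read from 5 fixed lists of 56 genes, of which 55 were present in the tables and 51 had at least 200 UMIs. By list, 1 of 5 genes of ligand processing and release and 1 of 18 responding genes passed 1.5-fold, both lower in KO. None of the 51 was 1.5-fold higher in KO and 2 were 1.5-fold lower, beside 0.371% and 2.02% of all genes, and their median log2 ratio was -0.04. The 2 were Disp1, which releases the lipid-modified ligand from the cells that make it, with 226 UMIs in WT and 136 in KO (-0.60, -0.92 to -0.28), and Foxf1, a forkhead gene of splanchnic mesoderm that responds to Hedgehog, with 612 and 356 UMIs (-0.65, -0.84 to -0.46). With median-of-ratios scaling Disp1 no longer passed (-0.54) and Foxf1 did (-0.59). Splanchnic mesoderm-like cells, gated in part on Foxf1, made up 3.89% of WT and 2.49% of KO cells. Within them Foxf1 stood at 270 CPM in WT (237 to 306) and 233 CPM in KO (194 to 276). Since Foxf1 helped to choose these cells, its level within them is a description only, and fewer cells of a class and less RNA per cell cannot be told apart in the total.

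In the list of reception genes, 0 of 7 passed 1.5-fold. Gas1, a co-receptor, had 5550 UMIs in WT and 4530 in KO (-0.16, -0.22 to -0.10), and Mgrn1, a ubiquitin ligase that limits Smo at the surface, had 654 and 507 (-0.23, -0.40 to -0.06). In the list of cytoplasmic regulators of Gli, 0 of 10 passed, with Gsk3b (-0.06) and Csnk1a1 (0.09), kinases that mark Gli proteins for processing, the most abundant. In the cilium list, 0 of 11 passed. Tulp3, an adaptor for ciliary receptors, gave -0.23 (-0.37 to -0.10) and Dync2h1, the motor of retrograde transport, gave 0.30 (0.15 to 0.45).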

How the data were processed

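Single-cell RNA-Seq libraries were made with the 10x Genomics 3′ kit from 1 pool of embryos per genotype. According to the submitters' processing notes, the authors aligned reads to mm10 with Cell Ranger 1.3.1 and used Scanpy; they removed cells and genes of low count and mitochondrial and ribosomal reads. The deposited signal values were counts scaled to the library size of each cell and square-root transformed by the authors. Per the methods, the authors excluded doublets with DoubletFinder and an upper limit on UMIs per cell. Here no doublet caller was run.

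Each value was squared and divided by the smallest nonzero square of its cell, which gave UMIs. A marker counted in a cell when its UMIs reached the lowest level that at most 10% of cells reach. A cell entered the class with most markers, at least 2 (3 for cardiac muscle, endothelial and erythroid), if no other class tied. This rule was chosen after marker values, but not member values, were seen. Members and lists were chosen with earlier results of these data known. UMIs were summed per class and library. With 1 library per genotype no test was run. Intervals (95%) were exact Poisson for levels, Clopper-Pearson for shares and conditional binomial for ratios, and a count of 0 was taken to allow 3. The named genes were all members, list genes with at least 100 UMIs past 1.5-fold or otherwise the most abundant 2 of a list, and the 5 genes with the highest r among those with at least 200 UMIs. The motif search, the cells with a T UMI and the values of Foxf1 within its class were added after the data were seen. Python 3, NumPy, SciPy and pandas were used, and the functions were tested on simulated data. Gene positions are from GENCODE on GRCm38, the build named mm10.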

Additional observations from a re-analysis of the deposited data

Results flagged for a closer look

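For 2 members, KO over WT ratios (log2) had counting intervals that excluded 0 in opposite directions in different classes. Among all gene and class pairs with at least 50 UMIs, 14.5% had an interval that excluded 0. The Smo pair in pharyngeal mesoderm-like cells is below that minimum, and how many genes had opposite signs was not counted. The difference between classes was not tested, because each genotype had 1 library. Ptch1 was higher in KO in endoderm-like (0.53), head mesenchyme-like (0.44) and splanchnic mesoderm-like cells (0.32) and lower in dorsal neural tube-like cells (-0.32). Smo was higher in KO in pharyngeal mesoderm-like cells (3.15, on 2 WT and 29 KO UMIs) and lower in sclerotome-like (-0.94) and endothelial-like cells (-0.59).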

How the results depend on the processing

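No paired analysis was possible because each genotype had 1 library; for the same reason no library could be left out. Without cells holding a T UMI, chosen after the data were seen, the log2 KO over WT ratio of Shh over all cells moved from -0.41 to -0.16. That of Ptch1 over all cells was 0.02, and became -0.037 as a mean over cells. It was 0.072 with median-of-ratios scaling, 0.076 with trimmed-mean scaling and -0.081 in thinned cells. The thinned value comes from a different set of cells, because cells below the thinning depth were left out. Among the cells of no class these were 1129 WT and 105 KO cells. Within endoderm-like cells, Ptch1 moved from 0.53 to 0.22 without cells holding a Shh UMI. Median-of-ratios scaling left 1 other pathway gene (Foxf1) past 1.5-fold in place of 2. With stricter gates, the ventral over dorsal ratio became 1.73 (WT) and 1.96 (KO) for Ptch1 and -1.44 (WT) for Gli3, the splanchnic mesoderm over all other cells ratio of Hhip in WT became 0.72 with an interval that held 0 (-0.36 to 1.62), and the splanchnic mesoderm over cardiac muscle ratio of Ptch1 in KO became 2.34. With Hedgehog-responding genes left out of the gates, the ventral over dorsal ratio in WT became 1.72 for Ptch1 and -2.68 for Gli3, the splanchnic mesoderm over cardiac muscle ratio of Ptch1 became 1.46 (WT) and 1.62 (KO), and the sclerotome over dermomyotome ratio of Ptch1 in KO became 1.34. With either other scaling the interval of Gli3 over all cells held 0, while those of Shh, Smo and Boc stayed below it. No ratio whose interval excluded 0 changed sign. The cause of these shifts was not tested. Of 398 alternative values, 369 stayed within the counting interval of the value reported. Depth limits comparisons of Shh, Gli1, Gli2, Hhip, Boc and Cdon, which had under 30 UMIs in most classes.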
